A study of Mus musculus with 36 samples.

Results

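The peaks of the MBD3 antibody on day 2 and on day 0 were compared in mouse embryonic stem cells. They were taken from the day 2 and day 0 peak lists as every interval on chromosomes 1 to 19, X and Y, counted once, which gave 1991 peaks on day 2 and 10464 on day 0, or 12455 of the 182783 peaks in the 8 lists of the series. A peak was called shared when it overlapped a peak of the other day by 1 bp or more. The series used chromatin immunoprecipitation followed by sequencing (ChIP-seq) with antibodies to MBD3 and CTCF, and input chromatin, on days 0, 2, 4 and 6, with 3 samples in each of 12 groups. The day 2 and day 0 MBD3 groups hold 3 samples each, named wild type in the peak lists, and differ in the labels by the day alone. The cells of every group were cultured with leukaemia inhibitory factor and serum replacement on gelatin with irradiated fibroblast feeders, and the labels do not say what was done between the days. Peak lists hold no expression values, so the cell type was not checked against marker levels. The 3 replicates were joined before peaks were called, so each day has 1 list, no spread between replicates and no p-value between days. Intervals in parentheses are exact 95% binomial intervals of a share and cover counting error only.

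MBD3 belongs to NuRD, a complex that moves nucleosomes and removes acetyl groups from histones. In embryonic stem cells NuRD is known for restraining the expression of pluripotency genes, and cells that lack MBD3 commit poorly to differentiation. CTCF is a zinc finger protein that binds a long DNA motif and halts cohesin at the borders of chromatin loops.

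Of the day 2 peaks, 53.0% (1055 of 1991, 50.8 to 55.2) were shared, and 936 were found on day 2 alone. Of the day 0 peaks, 10.2% (1065 of 10464, 9.60 to 10.8) were shared, and 9399 were found on day 0 alone. The 2 counts of shared peaks differ because a wide peak of 1 day can cover several of the other. Within the pairs the summits were a median of 10 bp apart, and 936 of the 1065 day 0 peaks (87.9%) had a day 2 summit within 50 bp. Few peaks narrowly missed each other. With the peaks of the other day widened by 500 bp at each end, the shares were 53.4% of the day 2 and 10.3% of the day 0 peaks. The shares depend on which peaks are counted. When the day 0 list was cut to the length of the day 2 list by -log10 q, they were 37.3% of the day 2 and 37.5% of the day 0 peaks, and without peaks of high background (over 10 times the list's level) 36.2% of the day 2 and 5.87% of the day 0 peaks. The lists themselves differed in kind. Of the MBD3 peaks, 53.7% lay in a CTCF peak of the same day on day 2 and 88.9% on day 0, where a peak counts as lying in another when they overlap by 1 bp or more.

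Promoters show what shared and single-day sites look like in sequence. The windows below run from 250 bases before to 50 after a gene's start, in RefSeq's GRCm38.p6 (mm10), on the gene's own strand. They belong to the 3 shared, 2 day 2 alone and 2 day 0 alone sites of highest fold whose summit lies in such a window. Fold is the peak caller's ratio of fragments at the summit to the expected background there. Capitals mark a core of the CTCF motif, which reads CC, any 3 bases, AG, any 2 bases and GGC, searched on both strands (GCC, any 2 bases, CT, any 3 bases and GG on the other strand). All windows are 300 bases long.

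Rapgef1: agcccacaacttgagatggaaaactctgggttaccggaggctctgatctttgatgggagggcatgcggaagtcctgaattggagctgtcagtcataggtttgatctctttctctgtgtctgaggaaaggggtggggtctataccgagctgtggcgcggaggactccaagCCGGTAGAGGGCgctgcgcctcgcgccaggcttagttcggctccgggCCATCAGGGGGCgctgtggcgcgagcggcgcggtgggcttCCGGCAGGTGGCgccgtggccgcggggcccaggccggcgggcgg
Med4: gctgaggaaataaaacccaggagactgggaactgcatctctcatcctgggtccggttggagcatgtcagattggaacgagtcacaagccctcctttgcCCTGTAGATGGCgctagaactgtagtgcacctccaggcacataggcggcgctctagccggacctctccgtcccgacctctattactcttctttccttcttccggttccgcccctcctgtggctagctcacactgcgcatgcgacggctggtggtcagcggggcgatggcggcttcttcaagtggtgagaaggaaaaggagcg
Zc3h15: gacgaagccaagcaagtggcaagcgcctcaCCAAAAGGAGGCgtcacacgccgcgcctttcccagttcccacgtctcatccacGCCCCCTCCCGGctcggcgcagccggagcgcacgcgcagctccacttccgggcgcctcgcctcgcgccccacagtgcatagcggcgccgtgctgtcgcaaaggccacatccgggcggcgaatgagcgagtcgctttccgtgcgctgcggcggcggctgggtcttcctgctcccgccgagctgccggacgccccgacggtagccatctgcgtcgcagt
Ptp4a2: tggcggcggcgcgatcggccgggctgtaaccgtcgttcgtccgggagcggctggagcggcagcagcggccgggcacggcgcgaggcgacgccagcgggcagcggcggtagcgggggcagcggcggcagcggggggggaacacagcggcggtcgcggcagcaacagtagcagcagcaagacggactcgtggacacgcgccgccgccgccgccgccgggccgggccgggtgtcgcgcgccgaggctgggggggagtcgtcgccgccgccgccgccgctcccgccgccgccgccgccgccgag
Gm2245: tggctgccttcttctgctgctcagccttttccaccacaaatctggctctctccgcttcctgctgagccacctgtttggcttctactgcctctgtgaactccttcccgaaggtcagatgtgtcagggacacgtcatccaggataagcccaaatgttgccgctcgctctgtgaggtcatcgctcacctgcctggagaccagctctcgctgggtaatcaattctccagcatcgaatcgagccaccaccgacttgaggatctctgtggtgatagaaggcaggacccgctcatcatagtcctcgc
Slc6a19: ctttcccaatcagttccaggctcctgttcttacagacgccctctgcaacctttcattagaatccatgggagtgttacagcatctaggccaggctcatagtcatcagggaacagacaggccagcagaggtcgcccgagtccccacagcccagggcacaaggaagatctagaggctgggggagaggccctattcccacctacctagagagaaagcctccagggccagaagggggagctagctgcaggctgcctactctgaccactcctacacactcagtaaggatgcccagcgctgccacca
Zfp398: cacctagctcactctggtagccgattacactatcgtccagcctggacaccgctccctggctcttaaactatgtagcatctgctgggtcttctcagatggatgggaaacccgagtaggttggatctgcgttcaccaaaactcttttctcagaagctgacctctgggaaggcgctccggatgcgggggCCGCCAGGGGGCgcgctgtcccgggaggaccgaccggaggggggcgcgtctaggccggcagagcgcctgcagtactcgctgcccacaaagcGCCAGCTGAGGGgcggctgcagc

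Rapgef1, Med4 and Zc3h15 are shared sites, Ptp4a2 and Gm2245 sites of day 2 alone, and Slc6a19 and Zfp398 sites of day 0 alone. Rapgef1 encodes an exchange factor for Rap GTPases, and its window (chr2:29619470-29619769, plus strand) holds 3 copies of the motif. The MBD3 fold there was 11.6 on day 2 and 29.8 on day 0, and the day 2 summit lay at base 199 of the window. Med4, a subunit of the Mediator complex (chr14:73509799-73510098, plus strand), has 1 copy, and its MBD3 fold was 10.8 on day 2 and 9.54 on day 0. CTCF peaks covered both places on both days. Zc3h15, a zinc finger protein gene (chr2:83644328-83644627, plus strand), has 2 copies, but its day 2 summit lay at base 295, away from them. Its fold was 9.50 on day 2 and 3.73 on day 0, no day 2 CTCF peak covered it, and a day 0 CTCF peak did.

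The day 0 alone window of Zfp398, a zinc finger protein gene (chr6:47835411-47835710, plus strand), has 2 copies of the motif, a day 0 MBD3 fold of 11.4 and CTCF folds of 6.13 on day 2 and 24.1 on day 0. That of Slc6a19, an amino acid transporter gene (chr13:73692587-73692886, minus strand), has 0 copies, an MBD3 fold of 13.1 on day 0 and CTCF folds of 8.51 on day 2 and 29.9 on day 0. The day 2 alone windows have 0 copies as well. Ptp4a2, a tyrosine phosphatase gene (chr4:129820229-129820528, plus strand), had a day 2 MBD3 fold of 5.48 and CTCF folds of 3.93 on day 2 and 7.63 on day 0. Its window was 81.7% G and C and held 60 CpG. Gm2245 (chr15:6654254-6654553, minus strand) had a day 2 MBD3 fold of 5.09 and no CTCF peak on either day.

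Over all such windows 8.61% of 32851 hold the motif on either strand. Of the 82 windows under a summit of a shared day 2 peak 45 held it (54.9%, 43.5 to 65.9), and of the 8 under a day 2 alone peak 0 did (upper bound 36.9%). Among day 0 peaks the motif was in 45 of 82 windows of shared peaks (54.9%, 43.5 to 65.9) and in 286 of 689 windows of day 0 alone peaks (41.5%, 37.8 to 45.3). Inside CTCF peaks of day 0 the shares were 55.6% of 81 windows (44.1 to 66.6) and 43.2% of 644 (39.3 to 47.1). The median distance from the summit to the motif was 22.5 bp for shared and 23.5 bp for day 0 alone peaks. A match is a description of these letters and no proof of binding, and a window without one can hold other forms of the motif.

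The day 0 peaks that were found again on day 2 stood at both ends of the day 0 fold range. In the decile of lowest fold, 1.24 to 2.76, 17.8% were found (186 of 1046, 15.5 to 20.2). In deciles 2 to 8 the shares were 2.96% to 5.44%. In decile 9 it was 8.60%, and in the decile of highest fold, 6.57 to 32.3, it was 46.3% (485 of 1047, 43.3 to 49.4). The 2 ends held different peaks. In decile 1, 168 of the 186 peaks found had a high background, which here means that the peak caller expected over 10 times the genome-wide background level of that list. In that decile 43.2% of the high background peaks and 2.74% of the others were found. In decile 10, 422 of the 485 found were peaks without a high background.

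**Figure D1:**
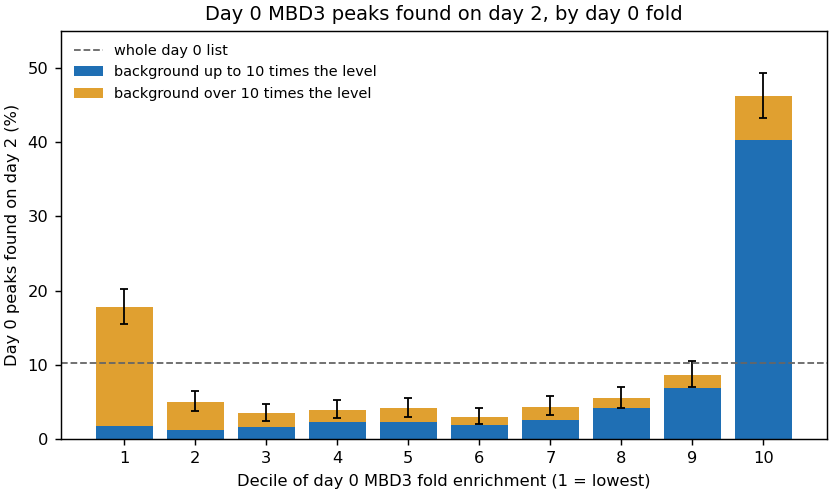
Share of day 0 MBD3 peaks found on day 2 (percent, vertical axis) by decile of the day 0 fold (horizontal axis, 1 is lowest), with bars split by whether the expected background at the day 0 peak was over 10 times the list's level and lines for exact 95% intervals of the whole bar. The first bar (17.8%) is mostly high background and the last (46.3%) mostly not, and the dashed line is the 10.2% of the whole list.

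CTCF overlap followed the same division. In decile 1, 4.76% of the 714 peaks inside a CTCF peak and 45.8% of the 332 outside were found on day 2. In decile 10, 46.4% of 1040 inside and 2 of 7 outside were found. Each decile was then weighted by its smaller class, inside or outside CTCF. In the whole list decile 1 counted most and decile 10 least. With these weights the share found inside CTCF minus that outside was -17.0 percentage points, and -1.81 points when peaks of high background were left out. It was -65.4 points with equal numbers of peaks and -59.1 points at a -log10 q of 10 or more, so its size depends strongly on the peaks counted while its sign did not turn in these settings. The sign belongs to this weighting. Without it, and with pseudogenes set apart, 7.41% of 8497 low background CTCF peaks and 3.42% of 878 other low background peaks were found on day 2.

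The 1065 shared day 0 peaks fell into 5 kinds, by the values of the day 0 peak and with pseudogenes counted first. CTCF sites without a high background made up 59.2% of them (630), CTCF sites with a high background 16.7% (178), annotated pseudogenes 12.6% (134), other high background sites 8.73% (93) and other low background sites 2.82% (30). Among the 9399 peaks of day 0 alone these shares were 83.7%, 5.67%, 1.12%, 0.489% and 9.02%. Read the other way, the share found on day 2 was 66.9% of 139 other high background peaks, 56.1% of 239 pseudogene peaks, 178 of 711 CTCF peaks of high background, 7.41% of 8497 CTCF peaks without it and 3.42% of 878 other low background peaks. Pseudogenes were thus frequent among the shared day 0 peaks and rare among the day 0 alone peaks. High background was seen in 36.4% (388 of 1065, 33.5 to 39.4) of the shared and 6.37% (599 of 9399, 5.89 to 6.89) of the day 0 alone peaks.

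**Figure D2:**
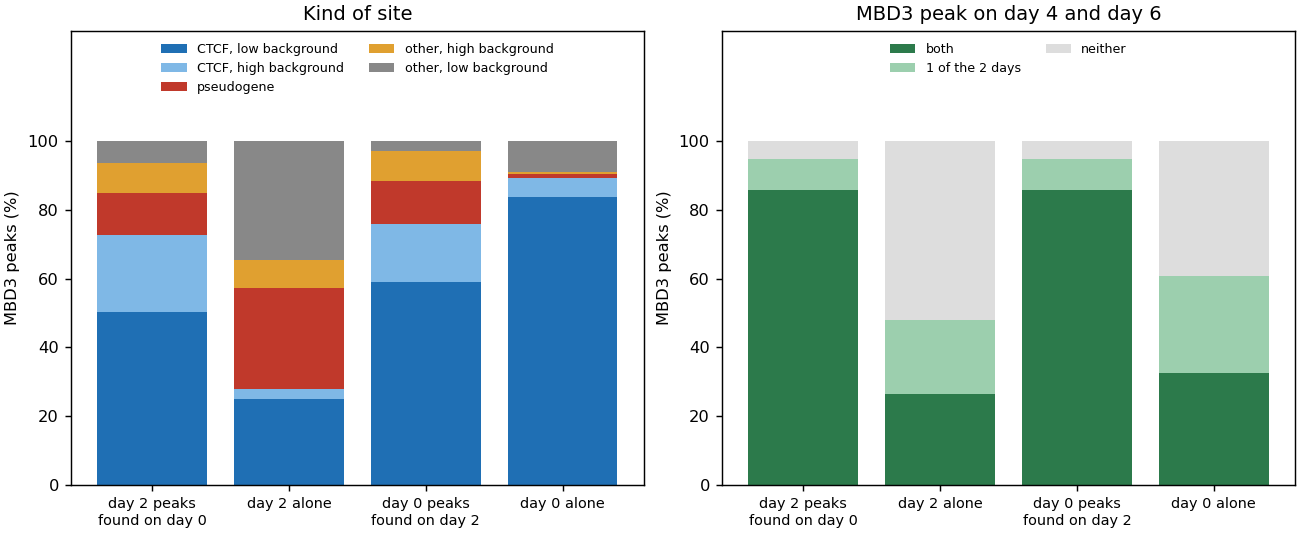
Make-up of the day 2 and day 0 MBD3 lists by class (percent of peaks, vertical axis), with the kind of site on the left and the presence of an MBD3 peak on days 4 and 6 on the right. Pseudogenes make up 29.5% of the day 2 alone peaks and 1.12% of the day 0 alone peaks, and 85.7% of the shared peaks of either list were found on both later days.

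The CTCF sites without a high background show how steeply detection on day 2 followed the day 0 fold. Up to a day 0 MBD3 fold of 3, 9 of 928 peaks (0.97%) were found on day 2, and between 5 and 6 it was 62 of 1233 (5.03%). Between 8 and 10 it was 93 of 209 (44.5%, 37.6 to 51.5), between 10 and 12 it was 89 of 117 (76.1%, 67.3 to 83.5) and between 12 and 15 it was 71 of 82 (86.6%, 77.3 to 93.1). Over 15 all 77 were found (95.3 to 100). Counting sites of high background too, the day 0 list had 87 peaks of fold 15 or more, which were all inside CTCF peaks and all found on day 2. The strongest day 0 peak that was not found had a fold of 14.99 and lay in Sh3d19.

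At a given day 0 MBD3 fold, the sites that were found had a higher median CTCF fold on day 2. Their median CTCF fold on day 0 was higher in the 3 ranges up to an MBD3 fold of 5. It was lower in each range from 5 to 15. Between day 0 MBD3 folds of 8 and 10 the median day 2 CTCF fold was 9.57 at the 93 sites found and 7.80 at those of the 116 not found that had a day 2 CTCF peak (114). The median day 0 CTCF fold was 18.1 at the found and 20.8 at the other sites. The day 2 CTCF fold was higher at the sites found in 8 of the 8 fold ranges that hold both classes, and the day 0 CTCF fold in 3 of 8. The expected background moved with this difference: between folds of 8 and 10 its median was 5.16 times the list's level at the sites found and 2.26 times at the others. At an equal fold a higher background means more fragments, and its part in the difference was not tested. In the same range 94.6% of the sites found and 50.9% of the others had an MBD3 peak on both day 4 and day 6.

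**Figure D3:**
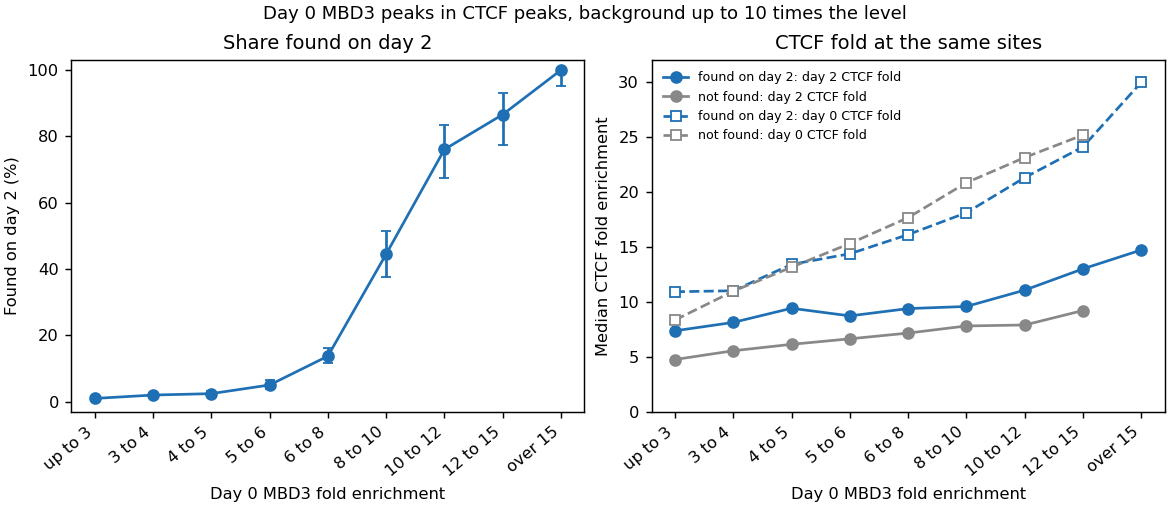
Day 0 MBD3 peaks inside CTCF peaks and without a high background, by day 0 MBD3 fold (horizontal axes). The left panel gives the percent found on day 2 with exact 95% intervals, from 0.97% to 100%. The right panel gives the median CTCF fold at sites found (blue) and not found (grey), with filled symbols for day 2 and open squares for day 0, and the blue filled symbols lie above the grey ones in all 8 ranges with both classes.

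At the same 630 shared CTCF sites without a high background, the MBD3 fold was lower on day 2. The median was 4.28 on day 2 and 8.32 on day 0, and the day 2 value was lower at 588 of the 630. The fragments over the summit were a median of 25.5 times the list's background level on day 2 and 45.0 times on day 0, and the expected background was 5.39 and 4.84 times the level on these days. The lower fold thus went with fewer fragments and a similar background. The background level itself was 2.18 fragments on day 2 and 1.51 on day 0, so the shorter list had the higher level. It depends on the number and length of the fragments and is the measure of depth that these lists hold. The weakest day 2 peaks at that level had 10 fragments and a fold of 3.45, and the weakest day 0 peaks 8 fragments and a fold of 3.58.

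The shared CTCF sites that were strongest on day 2 had similar folds on both days. In Ctif, a gene of translation initiation, a peak on chromosome 18 (75599760 to 75600235 on day 2) had a fold of 20.1 on day 2 and 23.6 on day 0, with 309 and 252 fragments on these days. In Sec22c, a vesicle trafficking gene on chromosome 9 (121697531 to 121698033), the fold was 16.5 on day 2 and 14.1 on day 0. A site between genes on chromosome 6 (112133589 to 112133822), 76992 bp from the noncoding gene 1700054K19Rik, had 14.8 on day 2 and 16.9 on day 0. In Fcgr1, an immunoglobulin receptor gene on chromosome 3 (96287344 to 96287721), it was 14.7 on day 2 and 12.5 on day 0. These 4 were chosen by their day 2 fold, which favours sites that are high on day 2. All 4 had MBD3 peaks on days 4 and 6, with folds of 13.9 to 37.7.

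The shared pseudogene sites went the other way. Pseudogenes are disabled copies of genes, many of them made from spliced messenger RNA, and near-identical copies share reads, whose placement is not given in the sources used here. At the 134 sites the median fold was 8.58 on day 2 and 2.34 on day 0, and it was higher on day 2 at 122. The fragments did not follow: their median was 107 on day 2 and 120.5 on day 0, and relative to the list's level it was 49.1 on day 2 and 79.8 on day 0, lower on day 2 at 128 of 134. What differed in the direction of the fold was the expected background, with a median of 4.41 times the level on day 2 and 37.3 times on day 0, lower on day 2 at 128 of 134. On days 4 and 6 the median was 3.76 and 2.90 times the level at the 122 and 119 of these sites that had a peak, so day 0 stood apart from the 3 later days.

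Rplp2-ps1, a pseudogene of a ribosomal stalk protein on chromosome 12 (75630990 to 75631378), led the shared sites outside CTCF and lies within the span of Wdr89. Its fold was 88.0 on day 2 and 2.05 on day 0, while 510 fragments lay over the summit on day 2 and 620 on day 0. The expected background was 2.20 times the level on day 2 and 200.1 times on day 0. Gm9843 on chromosome 16 (76403228 to 76403712) had folds of 73.5 on day 2 and 2.06 on day 0 from 233 fragments on day 2 and 301 on day 0. Gm15772 on chromosome 5 (3236426 to 3236865) had folds of 70.1 on day 2 and 2.86 on day 0 from 887 fragments on day 2 and 1273 on day 0. Gm5846 on chromosome 3 (49382493 to 49382845) had folds of 65.5 on day 2 and 2.19 on day 0 from 267 fragments on day 2 and 278 on day 0. At all 4 pseudogenes the day 2 peak held fewer fragments than the day 0 peak.

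Where the 2 antibodies could be compared, their backgrounds were nearly the same. Most shared pseudogene sites are outside this comparison, as 11 of 129 on day 2 and 13 of 134 on day 0 lay in a CTCF peak. At MBD3 peaks inside a CTCF peak of the same day, the background recovered from the CTCF list divided by that from the MBD3 list had a median of 0.997 on day 2 (1069 pairs) and 0.998 on day 0 (9298 pairs). The input groups are labelled by day and not by antibody. If both lists of a day were called against the same input, near-equal backgrounds are built in. The other high background sites outside CTCF also had a higher fold on day 2, 4.92 against 2.54 on day 0, with a background of 11.8 times the level on day 2 and 28.7 times on day 0. They were picked by their day 0 background, which favours that order. The shared pseudogene sites were picked by annotation and by being found on day 2. Of all 239 day 0 pseudogene peaks, a high background was seen in 117 of the 134 shared and in 20 of the 105 of day 0 alone, whose median background was 4.84 times the level, so the contrast in background describes the shared pseudogene sites and not pseudogenes at large.

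**Figure D4:**
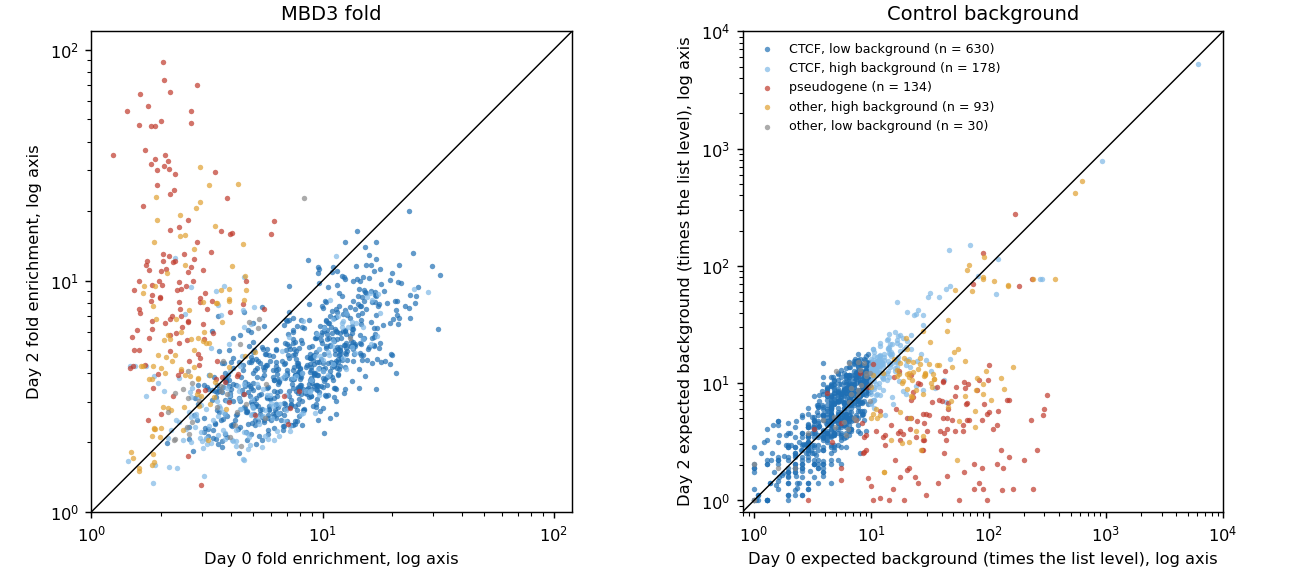
The 1065 shared day 0 MBD3 peaks by kind, with day 2 against day 0 MBD3 fold on the left and day 2 against day 0 expected background, in multiples of each list's level, on the right (log axes, the line marks equal values). CTCF sites lie mostly below the line on the left and near it on the right, and pseudogenes (red) lie above the line on the left and below it on the right.

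**Figure D5:**
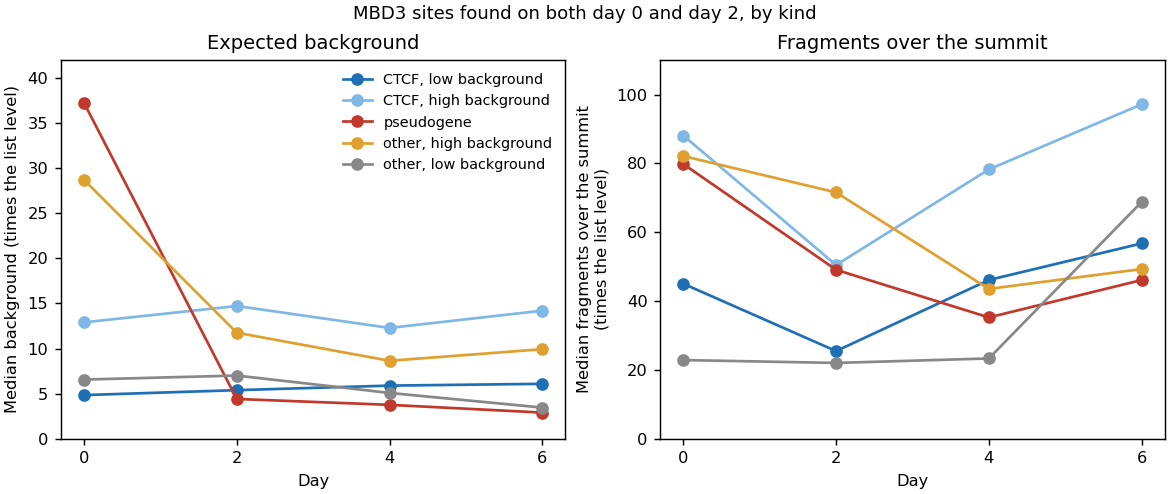
Median expected background (left) and median fragments over the summit (right), in multiples of each list's level, by day for the shared sites of each kind, where days 4 and 6 use the sites with a peak on that day. The pseudogene background was 4.41 on day 2 against 37.3 on day 0, and the fragments at CTCF sites without a high background were 25.5 on day 2 against 45.0 on day 0.

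Shared and single-day peaks also differed in strength within their own lists. In the day 2 list the median fold hardly differed, at 4.33 for shared and 4.27 for day 2 alone peaks. The fragments did, with medians of 70 for shared and 36 for day 2 alone peaks, and so did the -log10 q, at 16.8 and 8.09. In the day 0 list the median fold was 5.92 for shared and 3.99 for day 0 alone peaks, the -log10 q 29.4 and 7.09, and the width 303 and 219 bp. Where an MBD3 peak without a high background lay in a CTCF peak, its summit was closer to the CTCF summit in shared peaks, at a median of 8 bp against 18 bp in day 2 alone peaks. In the day 0 list these medians were 7 bp for shared and 13 bp for day 0 alone peaks. The median CTCF fold there was 10.5 for shared and 5.59 for day 2 alone peaks on day 2, and 18.0 for shared and 12.5 for day 0 alone peaks on day 0.

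Most shared sites were present again on the later days. Of the shared day 2 peaks 85.7% (904 of 1055, 83.4 to 87.7) had an MBD3 peak on both day 4 and day 6, and of the shared day 0 peaks 85.7% (913 of 1065, 83.5 to 87.8) did. The share was 26.3% (23.5 to 29.2) for day 2 alone and 32.6% (31.6 to 33.5) for day 0 alone peaks. The 3061 day 0 alone peaks with a peak on both later days were absent from the day 2 list alone. Peaks found on neither later day made up 52.0% of the day 2 alone peaks (487) and 39.2% of the day 0 alone peaks (3687). Among the 848 other low background peaks of day 0 alone, 90.3% were found on neither later day and 1.42% on both.

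The strongest day 0 alone sites lay in CTCF peaks that were themselves found on day 2. In Sh3d19, an adaptor protein gene on chromosome 3 (86002487 to 86002819), the MBD3 fold of 14.99 on day 0 rested on 87 fragments, and the CTCF fold was 10.4 on day 2 and 35.2 on day 0. In Mansc4 on chromosome 6 (147076167 to 147076745) the MBD3 fold was 14.5 on day 0, and the CTCF fold was 2.41 on day 2 and 25.2 on day 0. Sites 2600 bp from the noncoding gene 3300005D01Rik on chromosome 17 (5795897 to 5796185) and 14711 bp from Gm31466 on chromosome 3 (20520776 to 20521041) had MBD3 folds of 14.3 each on day 0. Their CTCF folds on day 2 were 9.90 and 15.3. Of these 4 sites, the one in Mansc4 lacked an MBD3 peak on days 4 and 6.

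Outside CTCF the strongest day 0 alone sites were weaker. They lay in Rbms3, an RNA-binding protein gene, on chromosome 9 (117220789 to 117221076, fold 12.2), 3178 bp from Gm20190 on chromosome 6 (126788899 to 126789170, fold 10.2) and in Mocos, a molybdenum cofactor gene, on chromosome 18 (24671511 to 24673455, fold 8.98). All 3 had MBD3 peaks on days 4 and 6, with folds of 2.70 to 16.2.

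The 936 day 2 alone peaks were made up differently. Pseudogenes lay under 276 of them (29.5%, 26.6 to 32.5), on 241 different pseudogenes. Of the 276, 31 lay on pseudogenes named for ribosomal proteins, against 27 of the 129 shared day 2 pseudogene peaks. Another 324 (34.6%) were low background peaks outside CTCF and pseudogenes, 233 lay in CTCF peaks without a high background and 27 in CTCF peaks with one. The remaining 76 (8.12%) were other high background peaks, a kind that made up 8.53% of the shared day 2 peaks. Gm6863 on chromosome 12 (96922489 to 96923058) had the highest fold of the day 2 list, 156.8 from 498 fragments, and MBD3 folds of 33.1 on day 4 and 102.8 on day 6. Gm6368 on chromosome X (141980074 to 141981031) had a day 2 fold of 65.7, Rps24-ps3 on chromosome X (79195039 to 79195498) 56.1 and Gm15500 on chromosome 7 (114705327 to 114705883) 47.5. The expected background at these 4 was 1.00 to 1.89 times the level. All 4 had MBD3 peaks on days 4 and 6 and no CTCF peak on days 0 and 2.

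Outside pseudogenes and CTCF, the day 2 alone peaks were led by one inside Hsp90ab1, a chaperone gene. It lay on chromosome 17 (45568890 to 45569142) and had a fold of 50.6 from 633 fragments. A peak inside Rpl4, a ribosomal protein gene, on chromosome 9 (64178219 to 64178474) had a fold of 29.8. The other two lay inside Macrod2, an ADP-ribose hydrolase gene, on chromosome 2 (140955868 to 140956124, fold 45.0) and 1248 bp from the small nucleolar RNA gene Gm24598 on chromosome X (64497764 to 64498029, fold 35.6). All 4 were present on days 4 and 6, with folds of 15.6 to 64.6. Of the 88 day 2 peaks of fold 15 or more, 64 lay on pseudogenes, 2 in CTCF peaks and 22 in neither, and 20 of those 22 lay inside a protein-coding gene.

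In day 2 CTCF peaks lay 290 of the day 2 alone peaks, 129 of them in CTCF peaks on both days. Those in a CTCF peak of day 2 and in none of day 0 were concentrated in a few places. Of the 936 day 2 alone peaks, 161 lay in a CTCF peak of day 2 and in none of day 0, and 98 of these fell in 3 stretches, chosen after their values were seen, with day 2 peaks at 19492920 to 20658434 on chromosome 8, 145403499 to 147755109 on chromosome 4 and 3105845 to 6950972 on chromosome 14. The stretches held 176 day 2 peaks, 165 of them day 2 alone (17.6% of 936), against 81 day 0 peaks. In each stretch the median expected background was lower at the day 2 peaks than at the day 0 peaks. It was 8.19 times the level on day 2 and 48.8 times on day 0 on chromosome 8. On chromosome 4 it was 2.41 and 6.28 times, and on chromosome 14 it was 4.57 and 16.5 times. Its part in the difference between the days was not tested. Of the 176 day 2 peaks, 106 lay in a day 2 CTCF peak and 8 in a day 0 CTCF peak, and 11 had an MBD3 peak on day 4 and 13 on day 6. The strongest day 2 alone peaks in CTCF peaks were 71777 bp from the pseudogene Gm4959 on chromosome 5 (10486429 to 10487021, fold 10.1), in the noncoding gene Platr25 on chromosome 13 (62721465 to 62721817, fold 9.85) and 32989 bp from Gm40658 on chromosome 13 (4778416 to 4778673, fold 9.40). None of these 3 had an MBD3 peak on days 4 or 6 or a CTCF peak on day 0.

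Of the 21887 protein-coding genes, 2.13% (466) had an MBD3 peak within 1 kb of either end on day 2 and 10.0% (2194) on day 0. At 314 genes it was there on both days, at 152 on day 2 alone and at 1880 on day 0 alone. Of the peaks, 23.6% of the shared and 15.1% of the day 2 alone peaks lay within 1 kb of a gene end in the day 2 list, and 23.5% of the shared and 18.0% of the day 0 alone peaks in the day 0 list. The last difference, 5.49 points, was -2.08 points with equal numbers of peaks. At a -log10 q of 10 or more it was 1.94 points, and both values are within counting error. It turned to -7.51 points when peaks of high background were dropped from both lists. A low background day 0 peak whose day 2 partner was dropped then counted as not found. With the classes kept, 17.8% of the shared and 17.0% of the day 0 alone CTCF sites without a high background lay within 1 kb of a gene end. For other low background sites these shares were 26.7% of 30 and 13.6% of 848. The CTCF sites without a high background were also split by day 0 MBD3 fold. In all 8 fold ranges that hold both classes, the share near a gene end was higher at the sites found on day 2. Between folds of 8 and 10 it was 16.1% of 93 found (9.32 to 25.2) and 9.48% of 116 not found (4.83 to 16.3).

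Among the NuRD subunit genes 3 of 15 had an MBD3 peak at an end on day 2 and 2 of 15 on day 0. Rbbp7, a histone-binding subunit, had it on both days, with a fold of 14.4 on day 2 and 4.51 on day 0, from 250 fragments on day 2 and 155 on day 0 over backgrounds of 7.56 times the level on day 2 and 22.3 times on day 0. Hdac2, a deacetylase (fold 4.13), and Mbd3 itself (3.19) had it on day 2 alone, and the deacetylase Hdac1 (2.69) on day 0 alone. Of the CTCF and cohesin genes 2 of 14 had a peak on day 2 and 6 on day 0. Ctcf had a fold of 3.23 on day 2 and 8.07 on day 0, and the cohesin subunit Stag2 5.62 on day 2 and 15.0 on day 0. All 6 of the day 0 peaks of this list lay in CTCF peaks, as did 88.9% of all day 0 MBD3 peaks. Those at Esco1 (8.88), Pds5b (4.52), Smc3 (3.95) and Pds5a (2.94), genes of cohesin or its regulators, were not found on day 2. Of all day 0 peaks 10.2% were found on day 2.

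Pluripotency genes held 2 of 20 on either day. Sox2, which encodes a transcription factor at the centre of the pluripotency network, had a peak on both days, with a fold of 7.50 on day 2 and 2.65 on day 0. It held 108 fragments on day 2 and 181 on day 0, over a background of 6.21 times the level on day 2 and 44.9 times on day 0. Pou5f1, which encodes Oct4, had a peak on day 2 alone (4.48) and Dppa5a, an RNA-binding protein gene, on day 0 alone (2.13, background 31.0 times the level). None of these 4 peaks lay in a CTCF peak.

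Ribosomal protein genes held 10 of 84 on day 2 and 19 of 84 on day 0, with 6 on both days, 4 on day 2 alone and 13 on day 0 alone. Rpl22 had a shared CTCF site with a fold of 11.7 on day 2 and 15.4 on day 0. At Rpl4 the peaks of both days lay at different places. Rpl8 had folds of 9.43 on day 2 and 2.70 on day 0, and Rpl36al 8.01 on day 2 and 3.50 on day 0, both with day 0 backgrounds over 20 times the level (20.9 and 21.3). Rpl41 (7.60), Rps23 (8.27), Rpl14 (5.09) and Rpl32l (4.07) had a peak on day 2 alone and no CTCF peak there. Rplp0 (9.87), Rpl10a (6.10) and Rpl26 (3.56) were among those of day 0 alone, and these 3 peaks lay in CTCF peaks.

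Of 17 other genes of abundant transcripts 5 had a peak at an end on each day. Eef1a1, the translation elongation factor, had folds of 11.7 on day 2 and 2.54 on day 0, with 89 fragments on day 2 and 72 on day 0 over backgrounds of 3.08 times the level on day 2 and 18.4 times on day 0. Hsp90ab1 (7.68), Tuba1b (4.66) and Eef2 (3.45) had one on day 2 alone, and Actg1 (3.18), Eno1 (2.38) and Tubb5 (1.84) on day 0 alone, where the Tubb5 peak itself overlapped a day 2 peak outside the window. Hspa8 had peaks at different places on the days. Imprinted genes held 0 of 13 at their ends on day 2 and 1 on day 0, the retrotransposon-derived gene Peg10 (2.37), and DNA methylation genes 0 of 12 on day 2 and 1 on day 0, the methyl-CpG-binding protein gene Mbd1 (3.26).

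Counted anywhere in the gene or within 1 kb, a count chosen after seeing the data, MBD3 had a peak at 4.92% of all protein-coding genes on day 2 and 21.7% on day 0. By that count NuRD subunit genes held 3 of 15 on day 2 and 7 on day 0, CTCF and cohesin genes 3 of 14 on day 2 and 7 on day 0, and pluripotency genes 2 of 20 on day 2 and 3 on day 0. Ribosomal protein genes held 12 of 84 on day 2 and 21 on day 0, and DNA methylation genes 0 of 12 on day 2 and 4 on day 0. Imprinted genes held 5 of 13 on either day, with 4 on both days. The genes of abundant transcripts held 10 of 17 on day 2 and 7 on day 0, the one list of the 7 with more on day 2.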

How the data were processed

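Wild-type mouse embryonic stem cell ChIP-seq was used from 6 MBD3 samples, with the day 4 and day 6 MBD3 lists and the CTCF lists of days 0, 2, 4 and 6 for overlap. The submitters' processing notes name mm10 and the tools MACS2 (2.1.2), bedtools (2.25.0), Bowtie2 (2.3.4), SAMtools (1.9) and FastQC (0.11.7). The list names show that replicates 1 to 3 were pooled by the authors before calling. The deposited lists give the fold enrichment (a ratio), -log10 p, -log10 q (lowest 1.30, a q near 0.05) and summit offset of each peak, all the authors' own values, and an integer score that was not used. Folds describe and rank peaks within a list, and folds of 2 days depend on each list's background.

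Rows of 1 interval were joined and the summit of highest -log10 q kept. As MACS2 reports (fragments + 1)/(background + 1) and a Poisson p, both were recovered, with a match within 0.01% of -log10 p for 100% of peaks. The recovery and the overlap code were tested on simulated data. The background level is the lowest value shared by 0.5% of a list. Depth is otherwise unknown. PCR copies are not told apart, so intervals cover counting error. Genes, ends, pseudogenes and promoters came from RefSeq tables of GRCm38.p6, without exons; promoter sequences of 27025 genes were used, and those of chromosome 18 were not analysed here.

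Sites are named in order of fold per class and genes in order of -log10 q, up to 4 per list and class. One result under these rules is not reported here. Members, lists and rules were chosen with earlier results of these data known. Other settings tried were a -log10 q limit of 10, equal peak numbers, other overlap rules (50% of the shorter peak, summits within 100 bp, 500 bp of widening), joined neighbours, all sequences, every summit, 5 kb windows, and leaving out high background or pseudogenes. Leaving out high background dropped such peaks from every list compared, so a peak whose partner was dropped counted as not found. The tools were Python 3.11.15, scipy 1.17.1, numpy 2.4.6, matplotlib 3.10.9 and pandas 2.3.3.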

Additional observations from a re-analysis of the deposited data

Results flagged for a closer look

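On sequences outside chromosomes 1 to 19, X and Y, which the comparisons leave out, MBD3 had 28 peaks on day 2 and 29 on day 0, of which 7 on day 2 and 14 on day 0 were mitochondrial.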

How the results depend on the processing

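No paired analysis was possible because the replicates were joined before peak calling and the lists carry no replicate numbers, and for the same reason no replicate could be left out. Of 74 alternative values 35 stayed within the counting interval, 36 left it, larger or smaller, with the same sign, and 3 turned to the other sign. The share of day 0 peaks found on day 2 (10.2%) was 17.0% at a -log10 q of 10 or more, 37.5% with equal peak numbers, 9.51% by summits within 100 bp, 5.87% without high background, 9.07% without pseudogenes and 11.4% with neighbours joined. The share of day 2 peaks found on day 0 (53.0%) was 57.7%, 37.3%, 49.97%, 36.2%, 58.3% and 56.8% in the same settings, and 57.5% without the 3 stretches, a setting chosen after seeing the data like the count of peaks anywhere in a gene.

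CTCF overlap of shared minus day 0 alone peaks (-13.1 points) turned to 4.01 without high background, and was -20.5 at a -log10 q of 10 or more, -3.42 without pseudogenes and -9.90 with neighbours joined. Shared minus day 2 alone (42.9) was 62.8 at that q, 47.7 with equal numbers, 63.6 without high background and 49.4 without the stretches. Peaks near gene ends, shared minus day 0 alone (5.49 points), turned to -2.08 with equal numbers and -7.51 without high background, and was 1.94 at a -log10 q of 10 or more and 8.52 without pseudogenes. At that q, with equal numbers, without high background and without pseudogenes, the median fold difference (1.93) was 3.52, 2.44, 3.97 and 2.90, and the difference found within deciles with CTCF (-17.0 points) was -59.1, -65.4, -1.81 and -8.25. High background, shared minus day 0 alone (30.1 points), was 19.5 with equal numbers and 22.5 without pseudogenes. Pseudogene overlap, shared minus day 2 alone (-17.3 points), was -30.9 at that q and -34.2 without high background. Presence on days 4 and 6, shared minus day 0 alone (53.2 points), was 56.2 with equal numbers and 55.9 without high background. The cause of the turns was not tested. Fewer fragments than the weakest called peaks are not detectable in these lists, so a site of 1 day may hold signal below the threshold on the other.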

Other observations

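Shared peaks were unevenly spread over the chromosomes in the day 2 list. On chromosome 14, 30.1% of 113 day 2 peaks were found on day 0, on chromosome X 32.8% of 67 and on chromosome 8 39.6% of 197, against 68.8% of 112 on chromosome 11. Chromosomes 14 and 8 hold 2 of the 3 stretches described above. In the day 0 list the share found on day 2 was 8.21% of 609 on chromosome 1 and 15.1% of 159 on chromosome X.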
